A study of Mus musculus with 4 samples.

Results

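The Zscan4 and Usp17l families and Tcstv3, gene copies known from the 2-cell embryo, were followed in mouse embryonic stem (ES) cells in which Atad2 had been knocked down. The set holds 10 genes, namely Zscan4b, Zscan4c, Zscan4d, Zscan4e, Zscan4f, Usp17la, Usp17lb, Usp17lc, Usp17le and Tcstv3, of 20501 genes that could be given a level. They were selected on their log2 ratios in these same libraries, because their RNA had been seen to be higher after knockdown in both pairs of libraries. Their levels and ratios are therefore a description and carry no test. All 10 had a named transcript of at least 200 bases and all 10 reached the mean of 1 FPKM that was asked of a tested gene, as did 9865 genes in all.

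Atad2 is an ATPase with a bromodomain that binds acetylated histones on active chromatin. The cells were 46C ES cells, a mouse ES line, in a clone carrying a TAP tag knocked in at Atad2, grown with LIF and serum on gelatin. All 4 RNA libraries come from cells with this tag, and RNA of untagged cells was not analysed here. The si-ctrl libraries (si-ctrl 1 and si-ctrl 2) come from cells given a scrambled siRNA, and the si-Atad2 libraries (si-Atad2 1 and si-Atad2 2) from cells given an active siRNA against Atad2. Which of the study's siRNAs went into which si-Atad2 library is not stated. The labels call the 2 libraries of a condition replicates without saying that they are separate transfections, and the study describes each RNA as having been sequenced 2 times. At least the si-ctrl libraries may therefore be repeat sequencing of the same RNA. Every SD, standard error and p-value below rests only on spread between these libraries, which may be technical. Standard errors come from limma, which draws the spread of each gene towards that of tested genes of like level. They are therefore not the spread of a gene's own 2 pairs alone. With 2 libraries against 2, a two-sided exact permutation test cannot go below p = 0.333. Levels are given as FPKM, a level per kilobase of transcript and per size of the library, and each si-Atad2 library was quantified by the authors in 1 run together with the si-ctrl library of the same number. Ratios are therefore taken within a pair, as log2 of (FPKM + 1) in si-Atad2 over (FPKM + 1) in si-ctrl, which understates the change of low genes.

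The 2-cell-like state is a rare and transient condition of cultured ES cells, in which genes of the embryo's major genome activation are switched on. Zscan4 proteins carry a SCAN domain and zinc fingers and are known for their part in telomere maintenance and genome stability of ES cells. Usp17l genes, also called Dub genes, encode deubiquitinating enzymes that were first described as cytokine-induced, and Tcstv3 belongs to a small family expressed in the 2-cell embryo. In bulk RNA, a change in how many cells are in such a state and a change in RNA per cell cannot be told apart.

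The promoters of the family members are shown first, because the copies resemble each other so closely that they bear on how each gene's level is to be read. RefSeq promoters of GRCm38.p6, which run from 250 bases before to 50 bases after the annotated start, were found for 7 of the 10 genes. In the Zscan4 family the Zscan4c promoter is the reference, at chr7:11005495-11005794 on the plus strand. The others lie at chr7:10905001-10905300 on the minus strand (Zscan4b), chr7:11166099-11166398 on the minus strand (Zscan4d) and chr7:11397665-11397964 on the plus strand (Zscan4f). Capitals mark the bases that differ from Zscan4c or do not align to it.
Zscan4c: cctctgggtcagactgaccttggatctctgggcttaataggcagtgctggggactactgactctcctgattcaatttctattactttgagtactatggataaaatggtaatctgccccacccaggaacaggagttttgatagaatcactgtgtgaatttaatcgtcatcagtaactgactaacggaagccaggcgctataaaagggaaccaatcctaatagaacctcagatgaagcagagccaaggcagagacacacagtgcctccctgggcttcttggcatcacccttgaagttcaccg
Zscan4b: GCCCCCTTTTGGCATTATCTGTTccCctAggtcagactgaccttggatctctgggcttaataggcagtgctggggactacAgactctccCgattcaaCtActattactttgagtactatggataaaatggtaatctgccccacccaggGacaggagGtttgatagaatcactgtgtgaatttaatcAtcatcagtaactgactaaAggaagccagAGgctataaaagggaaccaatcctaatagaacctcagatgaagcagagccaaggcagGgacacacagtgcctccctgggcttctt
Zscan4d: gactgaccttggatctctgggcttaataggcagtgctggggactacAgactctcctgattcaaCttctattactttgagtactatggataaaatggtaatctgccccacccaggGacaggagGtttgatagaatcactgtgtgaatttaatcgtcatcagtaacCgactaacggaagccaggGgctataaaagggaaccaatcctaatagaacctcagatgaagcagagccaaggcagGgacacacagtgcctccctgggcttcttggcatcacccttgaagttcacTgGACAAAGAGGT
Zscan4f: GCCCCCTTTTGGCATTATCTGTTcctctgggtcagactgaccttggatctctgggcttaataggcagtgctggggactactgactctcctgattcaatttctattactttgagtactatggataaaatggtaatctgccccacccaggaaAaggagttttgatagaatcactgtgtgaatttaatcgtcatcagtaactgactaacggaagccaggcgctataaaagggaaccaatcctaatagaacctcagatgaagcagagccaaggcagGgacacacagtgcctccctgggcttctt
Over the aligned stretch, Zscan4f was identical to Zscan4c in 99.3% of 277 bases, Zscan4d in 97.2% of 289 bases and Zscan4b in 95.3% of 277 bases. For the Usp17l family the reference is Usp17la, at chr7:104856766-104857065 on the plus strand, with Usp17lb at chr7:104842534-104842833 on the minus strand and Usp17lc at chr7:103416446-103416745 on the plus strand. Capitals mark differences from Usp17la in the same way.
Usp17la: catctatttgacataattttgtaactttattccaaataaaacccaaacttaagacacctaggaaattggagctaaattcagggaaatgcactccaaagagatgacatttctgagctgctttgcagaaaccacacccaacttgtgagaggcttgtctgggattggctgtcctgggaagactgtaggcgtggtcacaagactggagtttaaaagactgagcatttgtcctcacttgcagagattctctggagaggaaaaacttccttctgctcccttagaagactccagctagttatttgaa
Usp17lb: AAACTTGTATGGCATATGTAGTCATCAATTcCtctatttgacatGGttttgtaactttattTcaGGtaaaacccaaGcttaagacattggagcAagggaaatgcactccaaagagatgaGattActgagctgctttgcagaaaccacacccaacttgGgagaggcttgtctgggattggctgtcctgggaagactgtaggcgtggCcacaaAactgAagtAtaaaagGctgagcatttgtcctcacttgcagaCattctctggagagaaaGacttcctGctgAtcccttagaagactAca
Usp17lc: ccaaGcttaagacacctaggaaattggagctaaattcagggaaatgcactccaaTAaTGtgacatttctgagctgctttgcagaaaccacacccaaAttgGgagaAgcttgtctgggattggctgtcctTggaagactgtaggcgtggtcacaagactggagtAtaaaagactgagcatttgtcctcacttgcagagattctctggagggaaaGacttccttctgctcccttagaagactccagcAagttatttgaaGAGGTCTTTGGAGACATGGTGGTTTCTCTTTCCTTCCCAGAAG
Usp17lc was identical to Usp17la in 95.3% of 257 aligned bases and Usp17lb in 92.2% of 270.

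Certain short letter strings were searched on both strands of these promoters. TATAAA, the core of a TATA box, was found in 6 of the 7, all but Usp17la, and in 13.569% of all 32544 promoters of this length. Its first base lay at position -31 in Zscan4b, Zscan4f and Usp17lb, at -54 in Zscan4c, at -65 in Zscan4d and at -88 in Usp17lc, counted from the annotated start. TGATTNAAT, part of the motif of the 2-cell activator Dux, was found in Zscan4b, Zscan4c and Zscan4f and in 0.719% of all promoters. In Zscan4c and Zscan4f it lies on the plus strand, at -184 and -161, and in Zscan4b on the minus strand at -72. TGCACAC, letters known to be bound by Zscan4 itself, was found in none of the 7 and in 4.425% of all promoters. The 7 promoters held between 1 and 4 CpG dinucleotides, against a median of 7 over all promoters, and were 42.0% to 47.7% GC against a median of 53.0%.

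The transcribed sequences are as alike as the promoters, so reads of one copy can be counted for another. All windows of 50 bases, the length of a read, were taken from each gene's transcript and searched in every annotated transcript. Fragments were read from both ends, so these shares for single reads may overstate how many fragments are shared. Within the Zscan4 family, 4.7% of the windows of Zscan4f were found in no other gene, 7.5% of Zscan4b, 8.4% of Zscan4e, 14.5% of Zscan4c and 50.4% of Zscan4d. Zscan4d, the copy best known from the 2-cell embryo, is thus the one copy of which about as many windows are its own as are shared. Its windows come from an annotated transcript of 2272 bases, while the quantified transcript has 1992. Zscan4b and Zscan4e shared 87.7% of the windows of Zscan4b, and their transcripts were 99.7% identical over 1745 aligned bases. Zscan4f shared 81.7% of its windows with Zscan4c and 84.7% with Zscan4-ps2, a further copy that is not among the 10 genes. The Usp17l copies were further apart, with 79.6% of windows unique to Usp17la, 75.8% to Usp17lb and 69.2% to Usp17le. Usp17lc had 38.4% of its own and shared 59.2% with Usp17ld, a copy outside the set. Of Tcstv3, 68.6% of the windows were its own, 19.0% were shared with Gm21818 and 17.9% with Tcstv1. The transcript cut into windows had 779 bases for Tcstv3, against 878 in the quantified one. For Usp17lb it had 1407, against 1459 in the more abundant quantified transcript. How the reads of shared stretches were divided among copies is not stated, so the values of single Zscan4 copies are uncertain and the sum over the family is the firmer quantity.

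**Figure D1:**
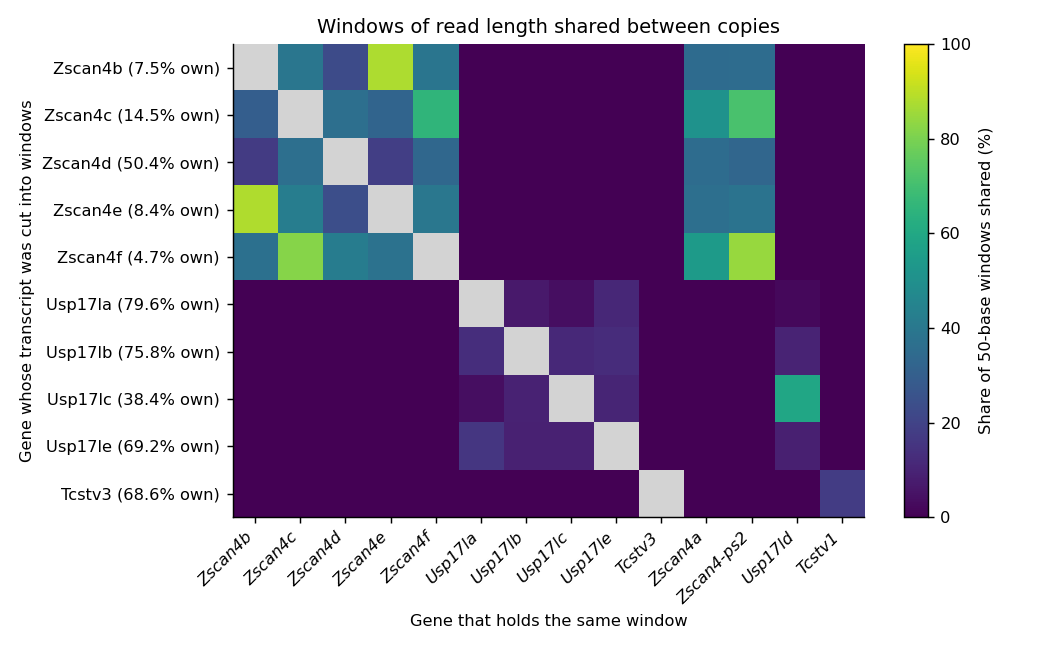
Share of 50-base windows (colour, %) of each gene's transcript (rows) that are also found in another gene (columns, the last 4 being copies outside the set). Grey marks the gene itself, and the percentage beside each row is the share of windows found in no other gene, from 4.7% in Zscan4f to 79.6% in Usp17la.

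The knockdown itself was seen in both pairs. Summed over its transcripts, Atad2 stood at 34.1 FPKM in si-ctrl 1, 36.0 in si-ctrl 2, 10.1 in si-Atad2 1 and 13.03 in si-Atad2 2. The si-Atad2 libraries were far below the si-ctrl libraries. The mean log2 ratio was -1.53 ± 0.077 (standard error by limma, n = 2 pairs), and limma over all 9865 genes gave an adjusted p of 4.0e-06. Among markers of the cell type, Pou5f1, which maintains the ES state, stood at 807 and 778 FPKM in si-ctrl 1 and 2 and at 739 and 701 FPKM in si-Atad2 1 and 2. Sox2, its partner, lay between 190 and 200 FPKM in the 4 libraries. Nanog stood at 338 and 332 FPKM in si-ctrl 1 and 2 and at 253 and 313 FPKM in si-Atad2 1 and 2. Esrrb, Zfp42 and Dppa5a were also lower in both si-Atad2 libraries, with mean log2 ratios of -0.07, -0.02 and -0.14. None of these markers passed the threshold by limma. Of the lists of markers for other cells, the 10 fibroblast markers summed to 125 to 158 FPKM, most of it Vim, with Lum at 0 in every library. The 8 primitive endoderm markers summed to 17.6 to 19.8 FPKM and the 8 trophoblast markers to 30.9 to 39.5 FPKM. Fibroblast markers summed to 158 and 151 FPKM in si-ctrl 1 and si-ctrl 2 and to 125 and 129 FPKM in si-Atad2 1 and si-Atad2 2. Trophoblast markers summed to 39.5 and 38.9 FPKM in the si-ctrl libraries and to 30.9 and 34.99 FPKM in the si-Atad2 libraries. Their part in the results below was not tested.

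The Zscan4 family as a whole was higher in both si-Atad2 libraries. Its 5 genes together stood at 29.2 FPKM in si-ctrl 1 and 31.0 in si-ctrl 2, and at 42.7 FPKM in si-Atad2 1 and 41.3 in si-Atad2 2. The si-ctrl libraries differed from each other by a log2 ratio of 0.08 and the si-Atad2 libraries by -0.05. On knockdown the log2 ratios were 0.54 (pair 1) and 0.40 (pair 2), which average to 0.47 ± 0.095 (SD, n = 2 pairs). Without the pseudocount the sum was 46.6% higher in si-Atad2 1 than in si-ctrl 1 and 33.2% higher in si-Atad2 2 than in si-ctrl 2. With Zscan4a, an unprocessed pseudogene, and Zscan4-ps2 added to the sum, the mean log2 ratio was 0.46.

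The Zscan4 genes lie within 502 kb of the proximal part of chromosome 7 of GRCm38, between positions 10900740 and 11402318, with 91.5 to 155.6 kb between neighbouring starts. Zscan4d (positions 11161374 to 11166159, minus strand) had the highest level of the copies in the set. Zscan4-ps2, outside the set, was slightly higher than Zscan4d in both si-ctrl libraries. Zscan4d stood at 9.02 FPKM in si-ctrl 1, 10.2 in si-ctrl 2, 15.5 in si-Atad2 1 and 14.3 in si-Atad2 2. Both si-Atad2 libraries were well above both si-ctrl libraries, and the gap was larger in pair 1. Its log2 ratios of 0.72 (pair 1) and 0.45 (pair 2) were the highest of the 10 genes with a pseudocount of 1 FPKM. Without a pseudocount this holds in pair 1 only, since in pair 2 the fold of Zscan4d was 1.40, against 1.49 for Usp17lb and 1.47 for Usp17le. The authors' 95% intervals of the levels did not overlap in either pair. The lower si-Atad2 level was 1.40 times the higher si-ctrl level.

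Zscan4c (positions 11005745 to 11010547, plus strand), whose promoter drives the reporter commonly used to mark these cells, stood at 5.31 and 5.55 FPKM in si-ctrl 1 and 2 and at 7.47 and 7.37 FPKM in si-Atad2 1 and 2. The libraries of a condition lay close together and the conditions apart, with log2 ratios of 0.43 and 0.35. Zscan4f (positions 11397915 to 11402318, plus strand) stood at 4.47 and 4.596 FPKM in si-ctrl 1 and 2 and at 5.78 and 6.06 FPKM in si-Atad2 1 and 2. Its ratios of 0.31 and 0.33 were nearly the same in both pairs, and since most of its windows also occur in Zscan4c or Zscan4-ps2, these levels cannot be told apart from those of the other copies.

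Zscan4e (positions 11306378 to 11310682, minus strand) stood at 6.60 and 6.54 FPKM in si-ctrl 1 and 2 and at 8.82 and 8.51 FPKM in si-Atad2 1 and 2, with log2 ratios of 0.37 and 0.34. Zscan4b (positions 10900740 to 10905050, minus strand), its nearest relative, stood at 3.77 and 4.07 FPKM in si-ctrl 1 and 2 and at 5.18 and 5.004 FPKM in si-Atad2 1 and 2. Here too the si-Atad2 libraries were the higher ones, but in pair 2 the log2 ratio was 0.24 against 0.37 in pair 1, and the authors' intervals overlapped in pair 2. Zscan4d took 30.9% of the family's summed FPKM in si-ctrl 1, 33.0% in si-ctrl 2, 36.2% in si-Atad2 1 and 34.7% in si-Atad2 2. Its share was thus higher in both si-Atad2 libraries, while that of Zscan4b was 12.9% and 13.1% in the si-ctrl libraries and 12.1% in both si-Atad2 libraries.

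**Figure D2:**
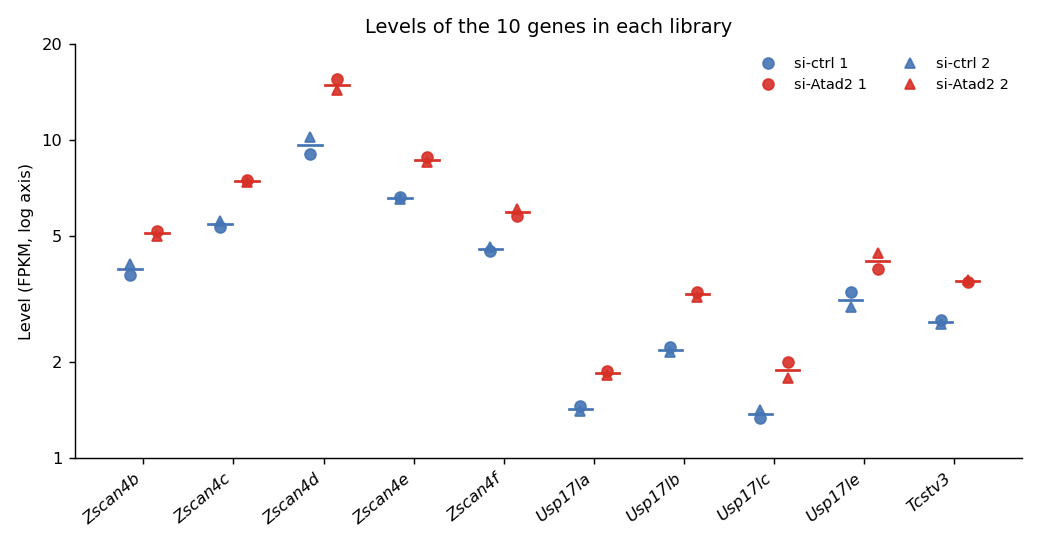
Level (FPKM, log axis) of each of the 10 genes in each library, with circles for libraries 1, triangles for libraries 2, blue for si-ctrl, red for si-Atad2 and a line at the mean of each condition. For every gene both red points lie above both blue points, with Zscan4d highest (9.02 to 15.5 FPKM) and Usp17la and Usp17lc lowest (1.33 to 2.00 FPKM).

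The Usp17l family was expressed at a lower level and was likewise higher after knockdown. Its 4 genes together stood at 8.33 FPKM in si-ctrl 1 and 7.97 in si-ctrl 2, and at 11.1 FPKM in si-Atad2 1 and 11.2 in si-Atad2 2. The libraries of a condition differed by log2 ratios of -0.06 (si-ctrl) and 0.01 (si-Atad2). On knockdown the log2 ratios were 0.38 (pair 1) and 0.45 (pair 2), which average to 0.41 ± 0.047 (SD, n = 2 pairs), and adding Usp17ld to the sum gave 0.43. Relative to the control of its pair, the sum was 33.7% higher in si-Atad2 1 and 40.8% higher in si-Atad2 2.

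These genes lie more distally on chromosome 7, Usp17le, Usp17lb and Usp17la near each other between positions 104768049 and 104862667 and Usp17lc at 103415072 to 103419880. Usp17le (positions 104768049 to 104777470, minus strand), the most abundant copy, stood at 3.32 and 2.98 FPKM in si-ctrl 1 and 2 and at 3.92 and 4.40 FPKM in si-Atad2 1 and 2. Within the Usp17l family it was the least even between pairs, with a log2 ratio of 0.19 in pair 1, where the authors' intervals overlapped, and 0.44 in pair 2, where they did not. Usp17lb (positions 104840257 to 104842603, minus strand), the sum of 2 listed transcripts, stood at 2.23 and 2.15 FPKM in si-ctrl 1 and 2 and at 3.34 and 3.21 FPKM in si-Atad2 1 and 2. Its log2 ratios of 0.43 and 0.42 were nearly identical and the highest of the family in pair 1. The 2 transcripts lie at the same locus, and their log2 ratios were 0.38 and 0.48 for the more abundant one and 0.26 and 0.06 for the other.

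Usp17la (positions 104857009 to 104862667, plus strand) stood at 1.45 and 1.41 FPKM in si-ctrl 1 and 2 and at 1.88 and 1.83 FPKM in si-Atad2 1 and 2, with a log2 ratio of 0.23 in both pairs. Usp17lc (plus strand) stood at 1.33 and 1.42 FPKM in si-ctrl 1 and 2 and at 2.00 and 1.79 FPKM in si-Atad2 1 and 2. The si-Atad2 libraries were again above the si-ctrl libraries, with log2 ratios of 0.36 and 0.20. At these levels the counting error is large. The authors' 95% intervals of Usp17la overlapped within both pairs, and those of Usp17lc within pair 2. Judged from the width of these intervals, the less abundant Usp17lb transcript rests on about 15 to 24 fragments per library, Usp17lc on 116 to 177 and Zscan4d on 833 to 1459. These are estimates, since the tables hold no counts.

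Tcstv3 (chromosome 13, positions 120316878 to 120318178, plus strand) stood at 2.73 FPKM in si-ctrl 1 and 2.64 in si-ctrl 2. In the si-Atad2 libraries it stood at 3.57 and 3.63 FPKM. The log2 ratios were 0.29 and 0.35, with a mean of 0.32 ± 0.037 (SD, n = 2 pairs), while the libraries of a condition differed by -0.03 and 0.02. The authors' intervals overlapped within both pairs. Tcstv1, the other named Tcstv gene, was near the detection limit at 0.213 and 0.339 FPKM in si-ctrl 1 and 2 and 0.271 and 0.384 FPKM in si-Atad2 1 and 2, so its conditions overlapped.

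**Figure D3:**
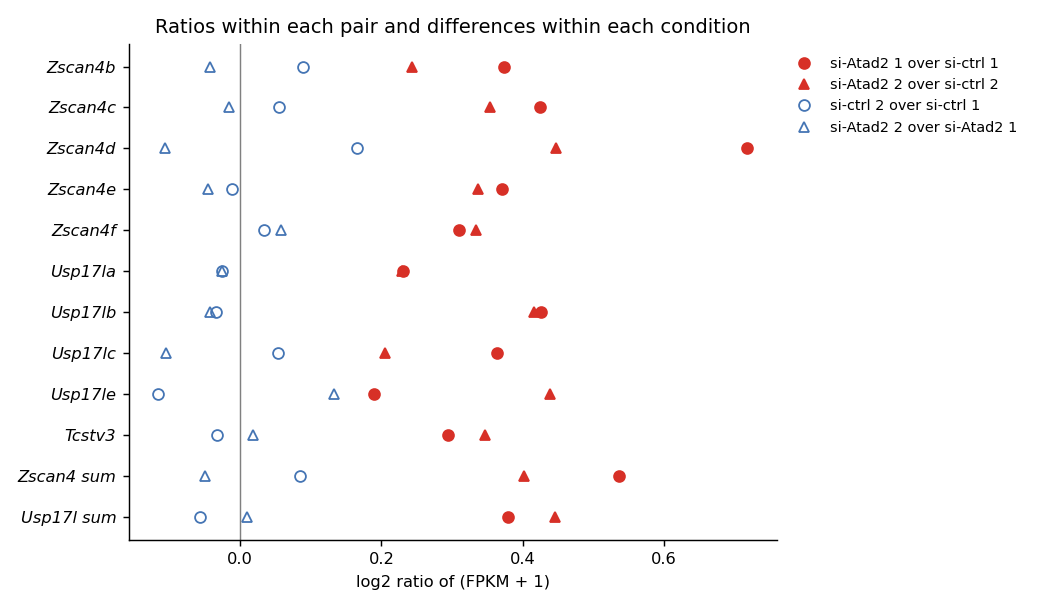
Log2 ratio of (FPKM + 1) for each of the 10 genes and the family sums, with filled red symbols for the ratio of si-Atad2 over si-ctrl within pair 1 (circles) and pair 2 (triangles), and open blue symbols for the difference between the libraries of 1 condition. All red symbols lie between 0.19 and 0.72, and all blue symbols between -0.12 and 0.16.

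In all 10 genes both si-Atad2 libraries were above both si-ctrl libraries. The same held for 22.6% of the 9865 tested genes, and since the genes were chosen for being higher, nothing is read from their count. Over all tested genes the median log2 ratio was -0.01, with quartiles of -0.08 and 0.07. Ordered by their mean level in the si-ctrl libraries, the genes ran Zscan4d, Zscan4e, Zscan4c, Zscan4f, Zscan4b, Usp17le, Tcstv3, Usp17lb, Usp17la and Usp17lc. Only Usp17la and Usp17lc, next to each other in this order, had si-ctrl levels that overlapped. The si-ctrl level of Zscan4d was above that of 50.3% of tested genes, and that of Usp17lc above 5.92%. The levels of si-ctrl 1 and si-ctrl 2 come from separate runs of the authors' quantification. The transcripts of the 10 genes had a median GC content of 45.8% (42.3% to 51.0%), against 50.8% over tested genes.

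The genes whose pair of ratios lay nearest to the Zscan4 sum were Wdr37, Cfl2, Pttg1ip, Gabarap and Prdx3, at a distance of 0.019 to 0.054 in the plane of the 2 log2 ratios. Cfl2 encodes a cofilin that severs actin filaments, Gabarap an autophagy protein and Prdx3 a mitochondrial peroxidase. Nearest to the Usp17l sum were Zfp764, Tcn2, Piwil4, Dnph1 and S100a13, at 0.025 to 0.041. Tcn2 transports vitamin B12, and Piwil4 binds piRNAs in the male germ line. None of these 10 genes was on the list of other 2-cell-like genes, and likeness over 4 libraries is a description only.

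Other genes known from the 2-cell-like state were then examined, from a list that was also written with earlier results of these data known, so it is no independent support. Of 40 listed genes, 29 had a level and 13 reached the filter. Among these 13, 6 were higher after knockdown and 0 lower by limma with Benjamini-Hochberg adjustment over all 9865 genes, where 1.7% of tested genes were called higher and 0.507% lower. Without Zscan4-ps2, which shares most of its windows with the Zscan4 genes above, 5 of 12 were higher and 0 lower. The median log2 ratio of the 13 was 0.31, with a range of 0.14 to 0.58. In all 13 both si-Atad2 libraries lay above both si-ctrl libraries, against 22.6% of tested genes. The same held for 11 of the 16 genes under the filter, against 23.2% of the 7675 genes under the filter that were above 0 in a library.

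4 of the 6 genes that rose, Gm2016, Gm2022, Gm5662 and Gm8300, form a cluster of Eif1a-like genes on chromosome 12, related to a translation initiation factor. Gm2016 stood at 4.93 FPKM in si-ctrl 1, 5.72 in si-ctrl 2, 8.45 in si-Atad2 1 and 8.42 in si-Atad2 2. Both si-Atad2 libraries were clearly above, and the mean log2 ratio was 0.58 ± 0.080 (standard error; limma, adjusted p = 0.0036). Gm2022 went from 5.25 and 5.41 FPKM to 8.15 and 8.30 FPKM, with a mean log2 ratio of 0.54 (adjusted p = 0.0036 by limma). Gm8300 had a mean log2 ratio of 0.53 and Gm5662 one of 0.52. These copies share reads as well, since 75.2% of the windows of Gm2016 occur in Gm5662 and 58.5% of those of Gm2022 in Gm2016, so they are not independent of each other. Gm8300 had 73.4% of windows of its own. Gm4027, a further Eif1a-like copy, stood at 1.22 and 1.00 FPKM in si-ctrl 1 and 2 and at 1.58 and 1.67 FPKM in si-Atad2 1 and 2, with an adjusted p of 0.120 by limma.

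The other genes past the threshold were Zscan4-ps2 and Gm20767. Zscan4-ps2 stood at 9.88 and 10.3 FPKM in si-ctrl 1 and 2 and at 14.0 and 13.6 FPKM in si-Atad2 1 and 2. Its mean log2 ratio was 0.42 ± 0.072 (standard error; limma, adjusted p = 0.012), but 81.1% of its windows occur in the Zscan4 genes above, so this is no separate measurement. Gm20767, on chromosome 13 near Tcstv3, stood at 8.18 and 9.76 FPKM in si-ctrl 1 and 2 and at 12.6 and 12.0 FPKM in si-Atad2 1 and 2, with a mean log2 ratio of 0.42 (adjusted p = 0.027 by limma, and 0.054 without the pairing). Of the windows of Gm20767, 29.8% were its own, and 60.8% occur in Gm21761, a listed 2-cell-like gene without a level. In 1 or more of the 10 genes, 1.5% of its windows occur.

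Genes of the list that did not pass the test also had positive ratios in both pairs. Ddit4l, which encodes an inhibitor of mTOR signalling, had a mean log2 ratio of 0.29 (adjusted p = 0.072 by limma), and Gm8994 one of 0.24 (adjusted p = 0.099). Gm12794 and Gm13119, members of the Prame-like family, had 0.22 and 0.20, AF067061 0.23 and Tmem92 0.14. Below the filter and not tested, Zfp352, a zinc finger gene of the 2-cell embryo, stood at 0.646 and 0.655 FPKM in si-ctrl 1 and 2 and at 0.996 and 1.02 FPKM in si-Atad2 1 and 2. Tdpoz4 stood at 0.709 and 0.812 FPKM and at 1.16 and 1.17 FPKM in the same order, and Usp17ld at 0.449 and 0.442 FPKM and at 0.674 and 0.742 FPKM. BB287469, Pramel7 and B020004J07Rik had mean log2 ratios of 0.25, 0.14 and 0.10. Duxf3, the transcription factor that switches the 2-cell programme on, stood at 0.283 and 0.260 FPKM in si-ctrl 1 and 2 and at 0.313 and 0.383 FPKM in si-Atad2 1 and 2, values too low to read a change from. Zscan4a, named only because no coding gene overlaps its locus, stood at 6.52 and 7.34 FPKM in si-ctrl 1 and 2 and at 8.91 and 9.46 FPKM in si-Atad2 1 and 2. In the fit with this naming, added after seeing the data, its mean log2 ratio was 0.36 (adjusted p = 0.033 by limma), from reads it may share with the Zscan4 genes.

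The 6 calls changed with the filter, the transcript lengths and the naming. Without a filter on low values 0 of 29 genes passed. In that fit 17 had an unadjusted p under 0.05 by limma, against 1708 of 17540 genes in all. With transcripts of all lengths 0 passed. With naming by length alone 3 passed, Gm2016, Gm5662 and Gm8300. Gm2022, Gm20767 and Zscan4-ps2 were not tested under that naming, so their calls could not be kept. In a fit without the pairing, the log2 ratio of Gm2016 was 0.49 without si-ctrl 1 and 0.67 without si-ctrl 2. That of Gm20767 was 0.31 and 0.54. Such a fit takes its spread only from the condition that keeps 2 libraries, so its calls do not show reliance on the library left out.

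**Figure D4:**
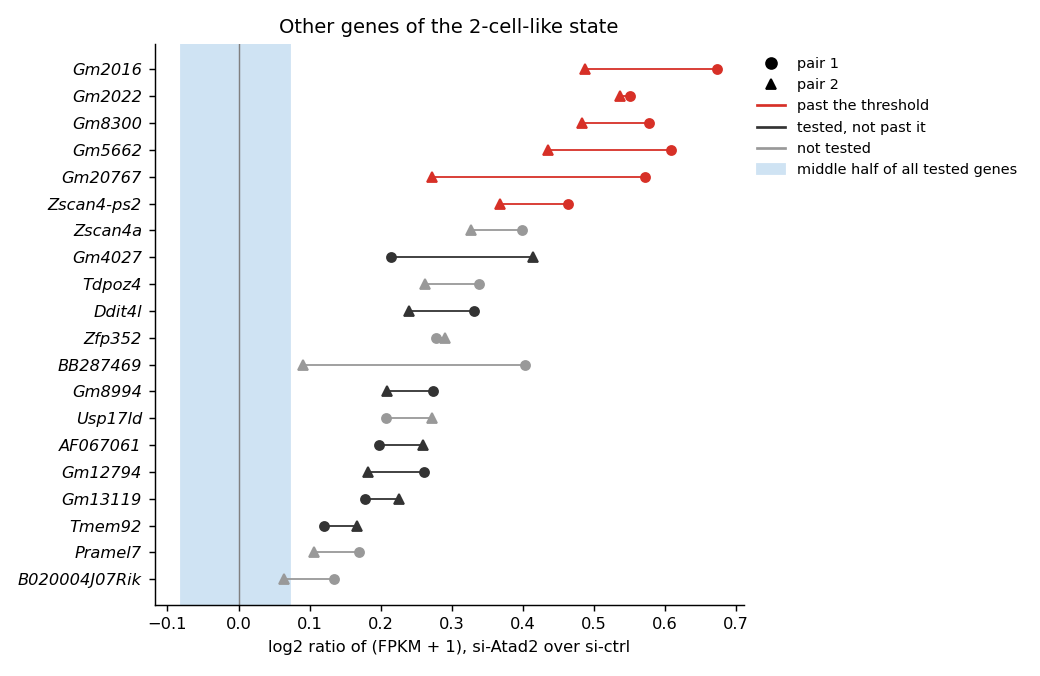
Log2 ratio of (FPKM + 1), si-Atad2 over si-ctrl, in pair 1 (circles) and pair 2 (triangles) for the listed 2-cell-like genes outside the set that reached 0.5 FPKM in a library, ordered by their mean. Red genes passed the test, black ones did not, grey ones were not tested, and the blue band spans the quartiles of all tested genes (-0.08 to 0.07); every gene lies to the right of 0 in both pairs.

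Genes that start within 500 kb of a member were examined, since the families lie in clusters. The annotation lists 257 of them, of which 118 had a level, 89 were at 0 FPKM in all libraries and 5 were tested. 3 of the 5 were higher and 0 lower by limma, where 1.7% of all tested genes were called higher and 0.507% lower. The 3 were Zscan4-ps2, Gm20767 and D13Ertd608e, which lies near Tcstv3. Zscan4-ps2 and Gm20767 were already among the called 2-cell-like genes above, so this count largely repeats that one. D13Ertd608e stood at 0.750 and 0.876 FPKM in si-ctrl 1 and 2 and at 1.49 and 1.35 FPKM in si-Atad2 1 and 2, with a mean log2 ratio of 0.42 (adjusted p = 0.049 by limma), and 92.4% of its windows occur in Gm21762. AF067061 did not pass. Zik1, a zinc finger gene near Zscan4b that was named after its values were seen, is the one tested neighbour that belongs to none of these copies, and its ratios were -0.30 in pair 1 and 0.17 in pair 2. Without a filter on low values or with transcripts of all lengths 0 neighbours passed, and after removal of the trend with GC content 1 did. With naming by length alone the 3 called neighbours were not tested, so their calls could not be kept. In a fit without the pairing, the log2 ratio of D13Ertd608e was 0.37 without si-ctrl 1 and 0.47 without si-ctrl 2, and that of Zscan4-ps2 was 0.39 and 0.44.

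Genes known to control the 2-cell-like state were listed to see whether their own RNA moved. Of 45 such genes, among them activators and repressors of Dux and chromatin silencers, 38 were tested. By limma, 0 passed in either direction and 4 had an unadjusted p under 0.05, against 1607 of all 9865 tested genes. Chaf1a, Kdm1a, Kat5 and Asf1a had no level and were not tested. L3mbtl2, at 0 FPKM in every library, Rnf2 and Sumo2 were under the filter. Whether transcripts left without a name belong to these genes was not tested. Their median log2 ratio was -0.02, with a range of -0.30 to 0.08. Dppa2 and Dppa4, which activate Dux, had mean log2 ratios of -0.0029 and 0.0054. Trim28, a corepressor that silences retroelements, had -0.23 in pair 1 and 0.02 in pair 2. Ring1 and Hira had the lowest means, -0.30 and -0.26, and were lower in both pairs, while 3 of the 38 were higher in both pairs. All these genes were named after their values were seen. A p that misses the threshold does not show that these genes did not change.

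Telomere genes were examined because Zscan4 acts on telomeres. Of 24 listed genes 17 were tested, with a median log2 ratio of -0.01. By limma 1 was called higher, where 1.7% of all tested genes were. Nop10, a small protein of the telomerase RNA and box H/ACA particles, rose from 163 and 159 FPKM in si-ctrl 1 and 2 to 205 and 194 FPKM in si-Atad2 1 and 2, with a mean log2 ratio of 0.31 ± 0.056 (standard error; limma, adjusted p = 0.016). Tert, the telomerase enzyme, stood at 6.01 and 5.69 FPKM in si-ctrl 1 and 2 and at 5.72 and 5.77 FPKM in si-Atad2 1 and 2, levels that overlapped; it was named after its values were seen. Nop10 missed the threshold without a filter on low values, with transcripts of all lengths and with eBayes without a trend. In a fit without the pairing, its log2 ratio lay between 0.27 and 0.35 when 1 library was left out.

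Pluripotency genes were examined as markers of the ES cell state itself. Of 22 listed, 21 were tested, and 1 was higher and 1 lower by limma, where 1.7% and 0.507% of all tested genes were. The median log2 ratio was -0.07. Klf2, a factor of the naive state, stood at 53.1 and 48.1 FPKM in si-ctrl 1 and 2 and at 77.7 and 85.7 FPKM in si-Atad2 1 and 2, with a mean log2 ratio of 0.68 ± 0.073 (standard error; limma, adjusted p = 0.0011). Dppa3, a maternal factor that protects methylation in the zygote, stood at 8.31 and 9.89 FPKM in si-ctrl 1 and 2 and at 6.95 and 6.03 FPKM in si-Atad2 1 and 2. Its mean log2 ratio was -0.43 (adjusted p = 0.044 by limma). The call was lost after rescaling to TPM, with median of ratios scaling, with removal of the GC trend and with transcripts of all lengths. It was also lost without a filter on low values, with eBayes without a trend and in the fit without the pairing (adjusted p = 0.075 by limma). Klf2 missed the threshold without a filter on low values and with transcripts of all lengths. In a fit without the pairing, the log2 ratio of Klf2 lay between 0.61 and 0.75 when 1 library was left out.

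Of the markers of other cells, Vim, an intermediate filament gene that ES cells also express, was lower (mean log2 ratio -0.30, adjusted p = 0.025 by limma), as was Tfap2c, a factor of trophoblast and germ cells (mean log2 ratio -0.44, adjusted p = 0.019 by limma). The other 3 tested fibroblast markers, the other 5 tested trophoblast markers and the 3 tested primitive endoderm markers did not pass. Over all tested genes, 0.507% were called lower. The calls of Vim and Tfap2c were both lost without a filter on low values and with transcripts of all lengths. That of Vim was also lost with eBayes without a trend. That of Tfap2c was also lost with naming by locus and length only and in the fit of all libraries without the pairing (adjusted p = 0.060 by limma). With 1 library left out of that fit, the log2 ratio lay between -0.33 and -0.27 for Vim and between -0.58 and -0.29 for Tfap2c.

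**Figure D5:**
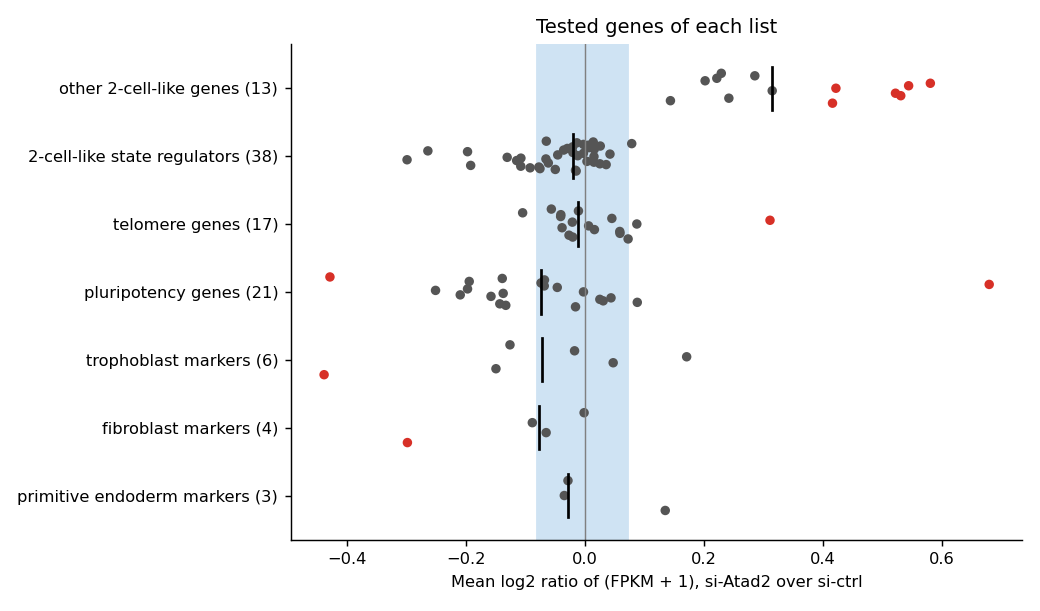
Mean log2 ratio of (FPKM + 1), si-Atad2 over si-ctrl, of every tested gene of each list (points, with the number of genes in brackets), with a black line at the list's median and red points for genes past the threshold; the blue band spans the quartiles of all tested genes. The other 2-cell-like genes lie between 0.14 and 0.58 with a median of 0.31, while the medians of the other 6 lists shown, which leave out the neighbouring genes, lie between -0.08 and -0.01.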

How the data were processed

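RNA of 46C ES cells was sequenced in 4 libraries (paired ends of 50 cycles, TruSeq RNA kit), grouped by the sample labels. The deposited values are FPKM per transcript with 95% intervals, made by the authors in 1 Cuffdiff run for each numbered pair of libraries, and no counts are given. The submitters' processing notes name TopHat, Cuffdiff and mm9, with no version, but the loci of the tables match GRCm38. The study's supplement names Bowtie for the RNA-seq reads. The handling of multiply mapped reads and of strand is not given in the sources used here, so values of copies and of overlapping genes are uncertain. The authors' deposited differential tables hold fold changes, p-values and q-values and were not used.

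Of 59120 transcripts, 52488 had at least 200 bases. In all, 14923 transcripts were named by a GENCODE vM21 transcript of the same length within 3 bases at their locus and 28346 by the locus's only coding gene. FPKM were summed per gene, and the 9865 genes that averaged 1 FPKM or more over the libraries and had status OK were tested with limma 3.58.1 in R 4.3.3 (lmFit on the 2 within-pair log2 ratios of FPKM + 1, eBayes with a trend, Benjamini-Hochberg adjustment, threshold 0.05), a procedure tested on simulated data. The pairing comes from the authors' runs. The deviations of same-numbered libraries had a Pearson correlation of -0.039 over tested genes, so the values themselves show no pairing. The members and all gene lists were chosen with earlier results of these data known. Genes named are the members, Atad2, list genes and neighbours past the threshold (at most 6 by size), other 2-cell-like genes of at least 0.5 FPKM in a library, and the 5 genes nearest in the 2 ratios to each family sum; others are named as such. Promoters are from RefSeq GRCm38.p6. Sequences were compared with Biopython 1.88 in Python 3.11.15. The alternatives were a pseudocount of 0.1 or 5 FPKM, TPM in place of FPKM, scaling by median of ratios, transcripts of all lengths, naming by locus and length only, the transcript tables, removal of the GC trend, other filters on low values, no block, eBayes without a trend and leaving out libraries. Naming also by a locus's only annotated gene and the sums with other copies were added after seeing the data.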

Additional observations from a re-analysis of the deposited data

How the results depend on the processing

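The mean log2 ratios of the Zscan4 sum, the Usp17l sum, Tcstv3 and each of the 10 genes were positive in every alternative that gave them a level. With naming by locus and length only, Zscan4d, Usp17la and Tcstv3 had no level, and Usp17lb lost its more abundant transcript. The sums then hold fewer genes, and were 0.39 for Zscan4 and 0.36 for Usp17l. The Zscan4 sum moved by less than the SD between pairs. The Usp17l sum was 0.30 with a pseudocount of 5 FPKM and 0.48 after rescaling to TPM. Tcstv3 was 0.41 with a pseudocount of 0.1 FPKM, 0.16 with 5 FPKM and 0.42 after rescaling to TPM. With 1 pair left out, the ratio was 0.40 to 0.54 for the Zscan4 sum, 0.38 to 0.45 for the Usp17l sum and 0.29 to 0.35 for Tcstv3.

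By limma, 218 genes were called in all, 11 with transcripts of all lengths and 32 of only 3669 tested genes with naming by locus and length only. With eBayes without a trend 143 were called, and 0 with no filter on low values, where 1708 genes had an unadjusted p under 0.05. Without the replicate block, 140 were called, and 1 of 21 pluripotency genes in place of 2; Tfap2c, the 1 trophoblast marker called, was also lost. The counts of the other 2-cell-like, regulator, telomere and neighbouring genes changed by at most 1.5 times. Leaving out 1 library without the block gave 10 to 1878 called genes (23 without si-ctrl 1, 10 without si-ctrl 2, 711 without si-Atad2 1 and 1878 without si-Atad2 2), 0 to 9 other 2-cell-like genes, 0 to 6 regulators, 0 to 1 telomere genes, 0 to 6 pluripotency genes and 0 to 4 neighbouring genes. With no filter or with transcripts of all lengths, 0 other 2-cell-like, telomere, pluripotency or neighbouring genes passed. With naming by locus and length only, 3 other 2-cell-like genes and 0 of the last 3 lists passed. Under this naming the other called 2-cell-like genes, Nop10, Klf2, Dppa3 and the called neighbours were not tested, so their calls could not be kept. Telomere genes passing were 0 with eBayes without a trend and 2 with naming also by the only annotated gene. Pluripotency genes passing were 1 after rescaling to TPM, with median of ratios scaling, with removal of the GC trend and with eBayes without a trend. Neighbouring genes passing were 1 with removal of the GC trend. The cause of these shifts was not tested. A fit with 1 library left out takes its spread only from the condition that keeps 2 libraries. Its calls therefore do not show reliance on the library left out. With 2 pairs, depth under about 2 FPKM and reads shared between copies limit the values of single Usp17l and Zscan4 genes.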

Other observations

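Terc, the RNA template of telomerase, was chosen after its values were seen and was named only because no coding gene overlaps its locus, so it is not among the genes tested above. It stood at 0.512 FPKM in si-ctrl 1 and 0.482 in si-ctrl 2, and at 1.35 FPKM in si-Atad2 1 and 1.73 in si-Atad2 2. Both si-Atad2 libraries were above both si-ctrl libraries, with log2 ratios of 0.64 and 0.88. In the fit with this added naming its mean log2 ratio was 0.76 ± 0.099 (standard error; limma, adjusted p = 0.0029). It is a short RNA without a poly(A) tail, and its level in these libraries is low.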
